A study of Mus musculus with 32 samples.

Results

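The Hoxa cluster genes described here are Hoxa2, Hoxa3, Hoxa4, Hoxa5, Hoxa6, Hoxa7, Hoxa9 and Hoxa10, 8 of the 27179 genes counted, matched by symbol and taken in their order along the cluster. They were followed in mouse blood stem and progenitor cells after deletion of Kat7, also called Hbo1, the gene of an enzyme that acetylates histones. Knockout (KO) mice were Hbo1fl/fl with both alleles deleted, and controls were Hbo1fl/+ with 1 allele deleted, according to the titles, so Kat7 was not intact in any group. A protocol note calls the controls wild type, and the genotype given here rests on the titles. Deletion was induced in adult C57BL/6 mice by tamoxifen through RosaCreERT2 (CreER), which is built into a broadly active locus, or by polyIC, an inducer of interferon, through the interferon-responsive Mx1Cre. All mice, controls included, carried a Cre and received its agent, and neither Cre is limited to blood cells. The 8 groups of 4 libraries were LSK CreER KO and LSK CreER control, LSK Mx1Cre KO and LSK Mx1Cre control, and the same 4 for progenitors. LSK cells carry Sca-1 and Kit but no lineage markers, and this fraction of the marrow holds the stem cells. The gate of the progenitors is not described. By the animal numbers in the labels, the 16 mice each gave 1 LSK and 1 progenitor library. Each Cre line came with its own agent and its own mice, so Cre line and agent cannot be told apart.

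Hox genes encode homeodomain transcription factors that lie in clusters and were first known for giving body segments their identity, with genes at the 3' end of a cluster acting nearer the head. In blood, Hoxa genes are most active in stem and early progenitor cells and are switched off as cells mature. HOXA9 binds DNA together with the TALE homeodomain proteins MEIS1 and PBX, and both Hoxa9 and Meis1 are needed for normal stem cell function in the mouse. The locus is held open by the MLL and menin complex and silenced by Polycomb proteins.

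The libraries held 7275277 to 18409271 counted reads (median 12207444). Kat7 had at most 1.65 CPM (reads of a gene per 1000000 counted, scaled with TMM factors) in any KO library, against 39.6 to 78.0 CPM in the control libraries. Ly6a, which encodes Sca-1, averaged 80.0, 91.9, 19.3 and 18.5 CPM in LSK CreER KO, LSK CreER control, LSK Mx1Cre KO and LSK Mx1Cre control libraries, and 2.87 to 5.23 CPM in the 4 progenitor groups. In LSK CreER KO libraries 2 and 3 the sex-linked genes went against the label. Library 2 was labelled female and library 3 male, so each had sex-linked genes of the sex given to the other. Kat7 stood at 0.849 and 0.832 CPM in them, within the range of KO libraries. Whether the 2 were exchanged was not tested. Levels of LSK CreER KO include both libraries, and tests of LSK cells are given without them where a member's call or a gene list's count moved. Reads carry no molecular identifiers, so the limits that counts allow cover counting error only.

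The 8 genes lie on the minus strand of chromosome 6, from 52162417 (3' end of Hoxa2) to 52240854 (5' end of Hoxa10) in GRCm38, a stretch of 78.4 kb. Hoxa3 is annotated over 44009 bp and its intron spans Hoxa4, Hoxa5 and Hoxa6. Exons of Hoxa5, Hoxa6 and Hoxa10 overlap no other annotated exon. Antisense exons overlap 25.4% of the exon bases of Hoxa3, 16% of Hoxa4 and 20.4% of Hoxa7, and without a stated strand setting, reads of the 2 strands cannot be told apart there. Same-strand transcripts share 15% of the exon bases of Hoxa2 and 8.01% of those of Hoxa3. All these shares are of GENCODE exons, which differ from the exons counted. Hoxa3 and Hoxa7 have 6014 and 2876 exon bp in GENCODE, against deposited lengths of 2543 and 1952 bp. Shares of the counted exons were not computed.

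Promoter sequences are shown for Hoxa9 and Hoxa7, the members with the highest levels, for Hoxa5, whose exons overlap nothing, and for Hoxa10, the member with the largest difference between LSK cells and progenitors. Each runs 5' to 3' on the minus strand, from 250 bases before to 50 bases after the RefSeq start site in GRCm38.p6. The regions are chr6:52227321-52227620 for Hoxa9, chr6:52218524-52218823 for Hoxa7, chr6:52204538-52204837 for Hoxa5 and chr6:52240805-52241104 for Hoxa10. Capitals mark matches, on either strand, to 6 short motifs, which are the TATA box with the letters TATAAA, the CCAAT box, the GC box with GGGCGG, the MEIS motif with TGACAG, the HOX-PBX motif with TGATTTAT and the CDX motif with TTTATG. The CDX motif can overlap the HOX-PBX motif.
Hoxa9: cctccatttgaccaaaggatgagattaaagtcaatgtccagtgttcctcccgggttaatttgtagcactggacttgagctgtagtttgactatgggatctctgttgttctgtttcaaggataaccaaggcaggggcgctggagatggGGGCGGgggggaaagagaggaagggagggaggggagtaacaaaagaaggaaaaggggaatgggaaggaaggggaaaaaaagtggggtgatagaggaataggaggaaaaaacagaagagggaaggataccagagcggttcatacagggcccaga
Hoxa7: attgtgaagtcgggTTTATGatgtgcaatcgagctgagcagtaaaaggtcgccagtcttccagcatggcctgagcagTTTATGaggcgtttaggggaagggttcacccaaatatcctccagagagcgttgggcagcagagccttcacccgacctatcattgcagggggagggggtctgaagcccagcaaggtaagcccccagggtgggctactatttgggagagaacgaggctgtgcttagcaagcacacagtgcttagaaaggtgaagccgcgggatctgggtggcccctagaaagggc
Hoxa5: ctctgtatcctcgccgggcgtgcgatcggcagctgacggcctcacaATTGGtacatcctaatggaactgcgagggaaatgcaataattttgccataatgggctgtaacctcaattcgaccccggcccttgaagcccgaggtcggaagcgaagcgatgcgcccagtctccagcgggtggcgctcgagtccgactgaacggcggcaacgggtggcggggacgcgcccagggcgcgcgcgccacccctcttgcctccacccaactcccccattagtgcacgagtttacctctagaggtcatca
Hoxa10: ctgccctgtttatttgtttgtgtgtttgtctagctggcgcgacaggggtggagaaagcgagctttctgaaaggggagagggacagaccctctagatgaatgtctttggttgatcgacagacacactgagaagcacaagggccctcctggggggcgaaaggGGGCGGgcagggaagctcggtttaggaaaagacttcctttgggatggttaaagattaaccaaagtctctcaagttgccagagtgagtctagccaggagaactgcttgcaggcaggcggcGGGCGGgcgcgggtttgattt

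The Hoxa9 window held 1 GC box, whose first base lies at -103 from the start site. Hoxa7 held 2 CDX motifs, at -236 and -173 from its start, a motif that 11.9% of the 32851 promoters in the table contain. CDX proteins are caudal-type homeodomain factors known as regulators of Hox genes. Hoxa5 held a single CCAAT match on the reverse strand, a motif found in 37.4% of promoters. Hoxa10 held 2 GC boxes, at -90 and 30, a motif found in 35.7% of promoters. The table had a promoter for 7 of the 8 members, Hoxa4 not among them. The MEIS motif stood in the windows of Hoxa2 and Hoxa3 (19.2% of all promoters), and the HOX-PBX motif in no member's window (0.977% of all). Among the members, the TATA motif matched only before a second, downstream start of Hoxa10 (13.6% of all). These are letter matches and not measured binding sites.

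In control LSK cells, Hoxa9 was the most abundant member per kilobase of exon and Hoxa7 came next, whichever Cre the mice carried. Per kilobase, Hoxa9 stood at 18 ± 1.2 CPM per kb in LSK Mx1Cre controls and 20.5 ± 2.86 CPM per kb in LSK CreER controls (SD, n = 4 each). Hoxa7 followed at 11.8 ± 0.38 CPM per kb in LSK Mx1Cre controls and 10.4 ± 0.859 in LSK CreER controls, with no overlap with Hoxa9. Hoxa5 came after Hoxa7 with 6.77 CPM per kb in LSK Mx1Cre controls and 5.95 in LSK CreER controls on average. Hoxa2 was last, at 0.925 CPM per kb in LSK Mx1Cre controls and 0.542 in LSK CreER controls. The order Hoxa9, Hoxa7 was kept in the group means of all 8 groups, but in LSK Mx1Cre KO, progenitor Mx1Cre KO and progenitor Mx1Cre control libraries the ranges of the 2 genes overlapped.

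**Figure D1:**
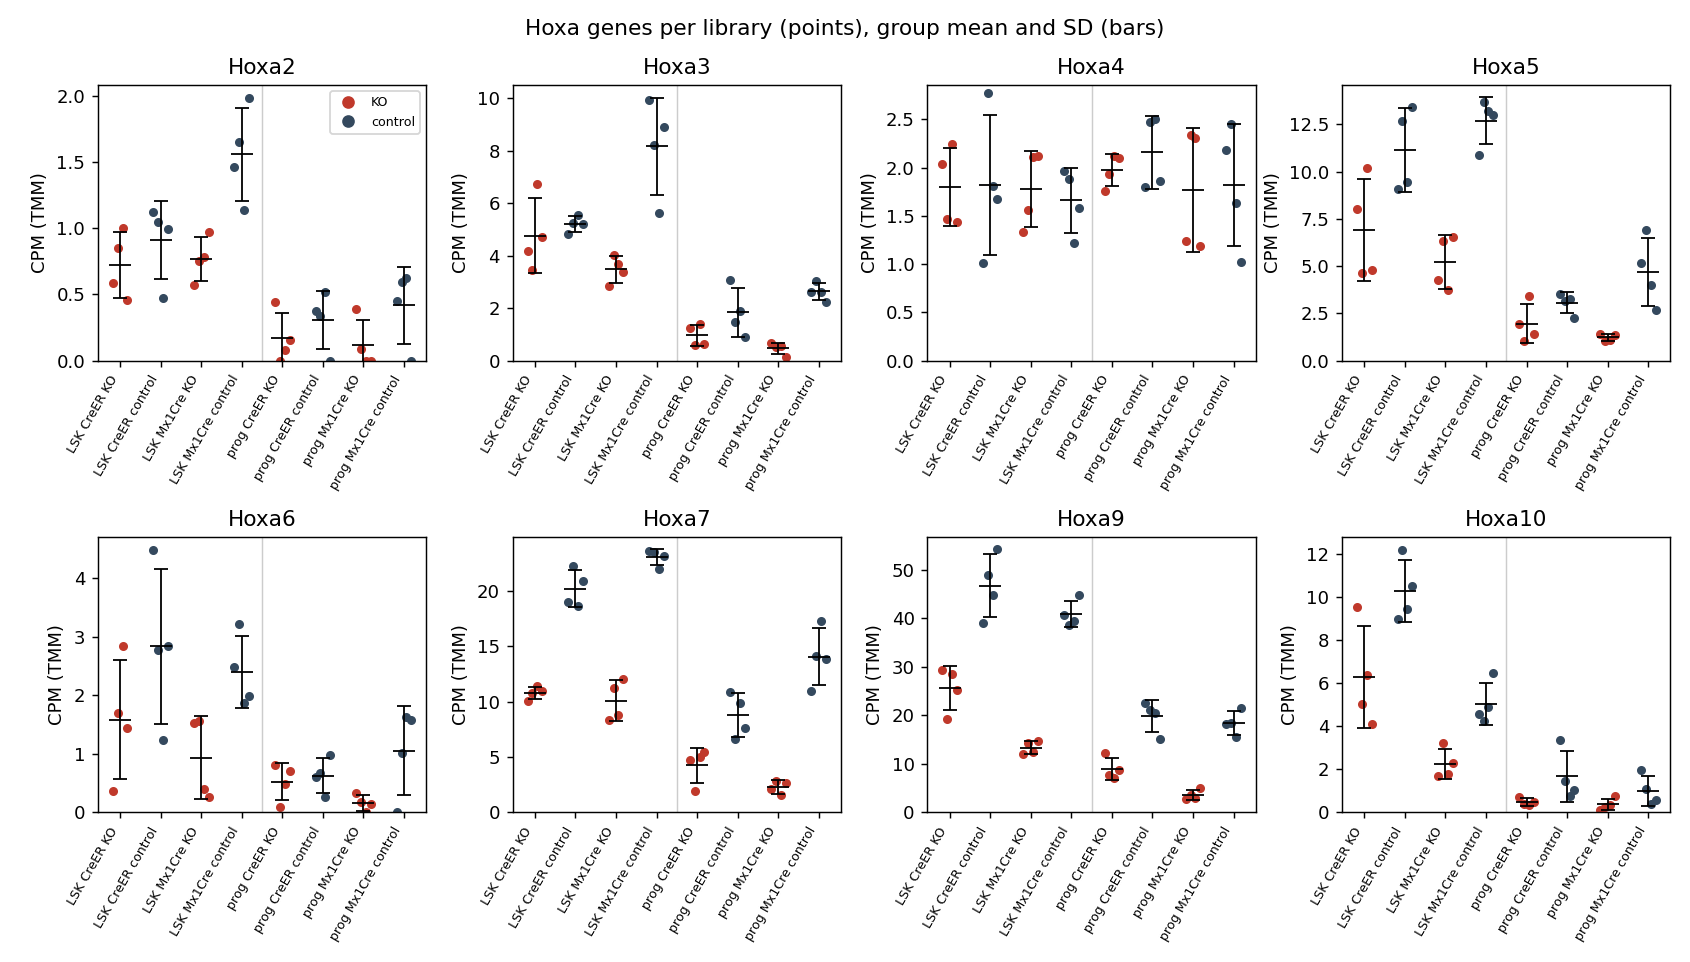
CPM of each Hoxa gene (y axis, linear from 0, own scale per panel) in the 8 groups (x axis), with 1 point per library and bars for the group mean ± SD (n = 4). Hoxa9 and Hoxa7 lay lower in every KO group than in its control group without overlap, while Hoxa4 stayed between 1.01 and 2.77 CPM in all 32 libraries.

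Hoxa9 and Hoxa7 were lower in KO than in control LSK cells of both Cre lines. Hoxa9, the best known stem cell factor of the cluster, had 29.3, 19.3, 28.4 and 25.3 CPM in LSK CreER KO libraries, against 38.9, 48.9, 44.7 and 54.2 CPM in LSK CreER controls. In LSK Mx1Cre KO libraries it had 12, 14.2, 12.5 and 14.7 CPM, against 40.6, 38.6, 39.4 and 44.7 CPM in LSK Mx1Cre controls. Neither pair of groups overlapped, and the Mx1Cre KO libraries were also lower than all CreER KO libraries. The log2 fold change (KO over control) was -0.87 ± 0.13 (SE) with CreER (edgeR, Benjamini-Hochberg adjusted p = 0.00173) and -1.61 ± 0.14 with Mx1Cre (edgeR, Benjamini-Hochberg adjusted p = 1.99e-07), which left Hoxa9 at 54.8% and 32.8% of its control mean. Without LSK CreER KO libraries 2 and 3, the CreER value was -0.77 (edgeR, Benjamini-Hochberg adjusted p = 0.032). In bulk samples such as these, fewer cells of a type and less RNA per cell cannot be told apart.

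Hoxa7, a neighbour of Hoxa9 that is also active in early blood progenitors, had 10.1, 10.8, 11.4 and 11 CPM in LSK CreER KO libraries, against 19, 22.3, 18.7 and 20.9 CPM in LSK CreER controls. It had 8.34, 11.2, 8.77 and 12.1 CPM in LSK Mx1Cre KO libraries, against 23.6, 23.5, 22 and 23.2 CPM in LSK Mx1Cre controls. Groups were again fully apart, and here the KO libraries of the 2 Cre lines overlapped each other. Hoxa7 fell by 0.89 ± 0.13 on the log2 scale with CreER (edgeR, Benjamini-Hochberg adjusted p = 0.00102) and by 1.19 ± 0.13 with Mx1Cre (edgeR, Benjamini-Hochberg adjusted p = 2.35e-06). The CreER value without libraries 2 and 3 was -0.93 (edgeR, Benjamini-Hochberg adjusted p = 0.0231).

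With CreER, Hoxa9 and Hoxa7 were the 2 of the 8 members that passed the test, both lower, where 1.59% of the 14102 genes tested in LSK cells were called lower. Without LSK CreER KO libraries 2 and 3 both were still called, and the calls over all genes in either direction numbered 33, against 445 with them. That fit held only 2 CreER KO libraries, and a smaller group alone can lower the number of calls. The other 6 members then had CreER values from -1.63 for Hoxa6 to -0.06 for Hoxa4, none past the threshold (edgeR, Benjamini-Hochberg adjusted p = 0.314 or higher). With Mx1Cre, 6 of 8 members were lower, where 15.9% of the genes tested were called lower. Hoxa4 and Hoxa6 were the exceptions. The median log2 fold change of the members was -0.70 with CreER and -1.21 with Mx1Cre, against 0.01 and -0.01 over all genes tested. Averaged over both Cre lines, 6 of 8 were lower, beside 14.3% of all genes, and without libraries 2 and 3 the count was 7 beside 11.9%, Hoxa2 being the gain. Library ranges did not overlap for 2 members with CreER and 7 with Mx1Cre, all of them lower in KO, where this held for 5.22% and 15% of the genes tested.

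Hoxa10, the most 5' member here and which can expand blood progenitors when overexpressed in mice, had 9.56, 5.04, 6.4 and 4.11 CPM in LSK CreER KO libraries, against 8.96, 12.2, 9.43 and 10.5 CPM in LSK CreER controls. KO library 1 lay within the control range and the other 3 below it. In LSK Mx1Cre KO libraries it had 1.71, 3.22, 1.8 and 2.3 CPM, against 4.59, 4.23, 4.87 and 6.46 CPM in the controls, without overlap. Hoxa10 fell by 1.14 ± 0.27 on the log2 scale with Mx1Cre (edgeR, Benjamini-Hochberg adjusted p = 0.00445). The CreER value of -0.71 ± 0.25 did not pass (edgeR, Benjamini-Hochberg adjusted p = 0.131), though it did when KO library 1 was left out, at -1.0 (edgeR, Benjamini-Hochberg adjusted p = 0.0219). Without KO libraries 2 and 3 the CreER value of Hoxa10 was -0.59 (edgeR, Benjamini-Hochberg adjusted p = 0.569).

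Hoxa5, whose overexpression in human progenitors favours myeloid over erythroid growth, had 8.03, 4.64, 10.2 and 4.79 CPM in LSK CreER KO libraries, against 9.07, 12.7, 9.43 and 13.4 CPM in LSK CreER controls. KO library 3 reached into the control range. With Mx1Cre, Hoxa5 had 4.26, 6.33, 3.76 and 6.53 CPM in KO libraries, against 10.9, 13.7, 13.2 and 13 CPM in controls, again apart. It fell by 1.28 ± 0.25 on the log2 scale with Mx1Cre (edgeR, Benjamini-Hochberg adjusted p = 0.00108), while the CreER value was -0.70 ± 0.24 (edgeR, Benjamini-Hochberg adjusted p = 0.133), or -0.93 without KO library 3 (edgeR, Benjamini-Hochberg adjusted p = 0.0494) and -0.80 without both KO libraries 2 and 3 (edgeR, Benjamini-Hochberg adjusted p = 0.314). Hoxa6, its upstream neighbour and a patterning gene of the axial skeleton, rested on 3 to 41 counts per LSK library. It ranged over 0.365 to 2.83 CPM in CreER KO libraries, against 1.24 to 4.48 CPM in controls, and over 0.265 to 1.56 CPM in Mx1Cre KO libraries, against 1.87 to 3.22 CPM in controls. Only the Mx1Cre groups were apart, and neither Cre line alone passed the test for Hoxa6 (edgeR, Benjamini-Hochberg adjusted p = 0.446 with CreER and 0.0761 with Mx1Cre). The Mx1Cre value of Hoxa6, -1.32 ± 0.55, passed with DESeq2 (Benjamini-Hochberg adjusted p = 0.0449), and leaving out LSK Mx1Cre KO library 2 brought it to -1.73 (edgeR, Benjamini-Hochberg adjusted p = 0.0369).

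At the 3' end, Hoxa3, which is needed for the thymus and other organs of the pharyngeal arches, had 4.16, 3.45, 6.74 and 4.71 CPM in LSK CreER KO libraries, against 4.81, 5.26, 5.53 and 5.19 CPM in LSK CreER controls. These groups overlapped. In LSK Mx1Cre KO libraries Hoxa3 had 2.84, 4.03, 3.68 and 3.36 CPM, against 9.92, 8.23, 5.61 and 8.91 CPM in LSK Mx1Cre controls, all KO libraries being lower. The log2 fold change was -0.13 ± 0.22 with CreER (edgeR, Benjamini-Hochberg adjusted p = 0.814) and -1.23 ± 0.22 with Mx1Cre (edgeR, Benjamini-Hochberg adjusted p = 0.000577). Hoxa2, a gene of hindbrain and second pharyngeal arch identity, was the lowest member. With CreER it ranged over 0.456 to 0.998 CPM in KO libraries, against 0.476 to 1.12 CPM in controls, and did not pass (edgeR, Benjamini-Hochberg adjusted p = 0.717). With Mx1Cre the groups were apart, at 0.568 to 0.971 CPM in Mx1Cre KO libraries, against 1.14 to 1.98 CPM in Mx1Cre controls. Its log2 fold change with Mx1Cre was -1.01 ± 0.36 (edgeR, Benjamini-Hochberg adjusted p = 0.0388). That call for Hoxa2 was lost on leaving out any 1 of the 8 libraries other than Mx1Cre control 3, with adjusted p from 0.051 to 0.115 in those 7 edgeR fits. It was also lost with no filter on low counts and in 1 fit of all 32 libraries (edgeR, Benjamini-Hochberg adjusted p = 0.0827 and 0.224).

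Hoxa4, a patterning gene of the cervical skeleton that lies within the intron of Hoxa3, was measured at a like level in every group. Its group means ran from 1.66 to 2.16 CPM and its libraries from 1.01 to 2.77 CPM, with a median of 1.87 CPM over all 32. Hoxa4 rested on 8 to 29 counts per library, and all KO and control groups overlapped. With CreER its log2 fold change in LSK cells was -0.02, with a 95% interval from -0.70 to 0.65, and with Mx1Cre it was 0.09, with an interval from -0.58 to 0.76. Neither passed the test (edgeR, Benjamini-Hochberg adjusted p = 0.984 and 0.854). The variance of the Hoxa4 counts over the 32 libraries was 1.26 times what counting alone gives, against 114 times for Hoxa9. This ratio grows with the number of counts, 715 in all for Hoxa4 and 8700 for Hoxa9. Hoxa6 and Hoxa2, with 494 and 254 counts, had ratios of 10.7 and 4.79.

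**Figure D2:**
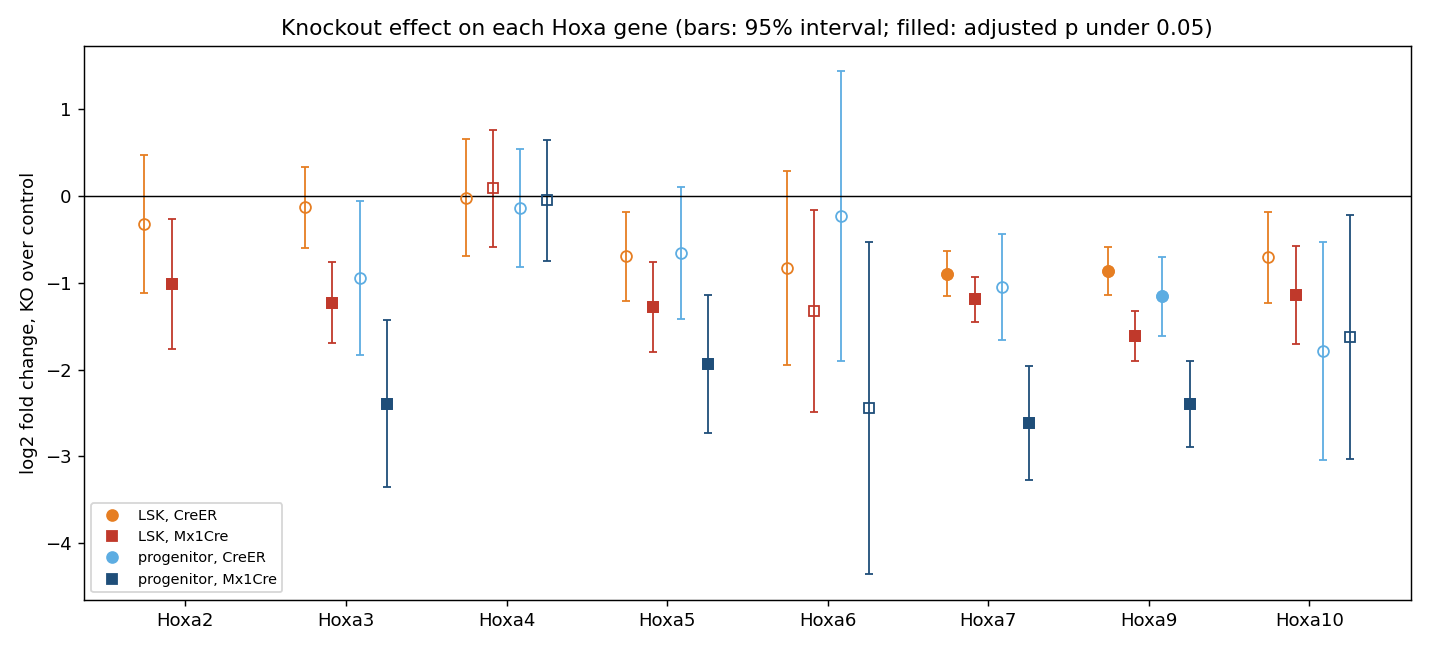
Log2 fold change, KO over control, of each Hoxa gene (x axis, in cluster order) in each population and Cre line, with 95% intervals and filled symbols for an edgeR adjusted p under 0.05. With Mx1Cre, LSK values lay at -1.01 or lower for all members other than Hoxa4, and progenitor values of Hoxa3, Hoxa7 and Hoxa9 at -2.40 or lower.

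In progenitors Hoxa9 was again lower in KO libraries of both Cre lines. It had 12.2, 7.72, 7.08 and 8.78 CPM in progenitor CreER KO libraries, against 22.6, 21, 20.5 and 15.1 CPM in progenitor CreER controls. In progenitor Mx1Cre KO libraries Hoxa9 had 2.67, 3.64, 2.97 and 4.92 CPM, against 18.2, 18.3, 15.6 and 21.5 CPM in progenitor Mx1Cre controls. No groups overlapped. The log2 fold change was -1.16 ± 0.21 with CreER (edgeR, Benjamini-Hochberg adjusted p = 0.0402) and -2.40 ± 0.23 with Mx1Cre (edgeR, Benjamini-Hochberg adjusted p = 1.13e-05), leaving 45.1% and 19.3% of the control mean. The CreER call for Hoxa9 was lost on leaving out any 1 of 6 libraries, CreER controls 1, 2 and 3 and CreER KO 2, 3 and 4, with edgeR adjusted p from 0.0994 to 0.19, and log2 fold changes stayed between -1.35 and -1.06.

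Hoxa7 had 4.7, 1.93, 4.96 and 5.44 CPM in progenitor CreER KO libraries, against 10.9, 6.62, 9.92 and 7.62 CPM in progenitor CreER controls. With Mx1Cre it had 2.09, 2.86, 1.54 and 2.69 CPM in progenitor KO libraries, against 11, 14.1, 17.3 and 13.9 CPM in controls. All KO libraries lay below all controls of their Cre line. Hoxa7 fell by 2.61 ± 0.31 on the log2 scale with Mx1Cre (edgeR, Benjamini-Hochberg adjusted p = 6.73e-05), and the CreER value of -1.05 ± 0.29 did not pass (edgeR, Benjamini-Hochberg adjusted p = 0.188). The CreER comparison called 23 genes in all, and the value of Hoxa7 passed with DESeq2 (Benjamini-Hochberg adjusted p = 0.0267) and in an edgeR fit of all 32 libraries (Benjamini-Hochberg adjusted p = 0.00944).

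Hoxa3 and Hoxa5 also passed the test in progenitors with Mx1Cre, and neither did with CreER. Hoxa3 had 0.652, 0.52, 0.551 and 0.149 CPM in progenitor Mx1Cre KO libraries, against 2.63, 3.04, 2.63 and 2.23 CPM in controls, a log2 fold change of -2.40 ± 0.45 (edgeR, Benjamini-Hochberg adjusted p = 0.00392). Hoxa5 had 1.43, 1.04, 1.1 and 1.34 CPM in progenitor Mx1Cre KO libraries, against 5.18, 6.93, 4.0 and 2.7 CPM in controls, a log2 fold change of -1.94 ± 0.38 (edgeR, Benjamini-Hochberg adjusted p = 0.0046). In both genes the KO and control libraries were fully apart. With CreER, Hoxa3 had 1.25, 0.579, 1.38 and 0.621 CPM in progenitor KO libraries, against 3.08, 1.46, 1.9 and 0.892 CPM in controls, a log2 fold change of -0.94 (edgeR, Benjamini-Hochberg adjusted p = 0.596). Hoxa5 had 1.91, 1.06, 3.42 and 1.4 CPM in progenitor CreER KO libraries, against 3.53, 3.14, 3.28 and 2.27 CPM in controls, at -0.66 (edgeR, Benjamini-Hochberg adjusted p = 0.749). The CreER groups overlapped for both.

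Hoxa10 was scarce in progenitors. It had 0.734, 0.386, 0.325 and 0.466 CPM in CreER KO libraries, against 3.38, 1.46, 0.777 and 1.05 CPM in CreER controls, without overlap. Hoxa10 rested on few reads with both Cre lines. With CreER it had 4 to 10 counts in each progenitor KO library and 9 to 45 in each control, which overlap before scaling. With Mx1Cre it had 2 to 5 counts in each progenitor KO library and 3 to 26 in each control. Its progenitor log2 fold changes of -1.79 ± 0.59 with CreER and -1.63 ± 0.66 with Mx1Cre passed only as a mean over both lines, -1.71 ± 0.45 (edgeR, Benjamini-Hochberg adjusted p = 0.0264). That mean call for Hoxa10 was lost on leaving out any 1 of 7 progenitor libraries, CreER control 1, CreER KO 2, 3 or 4, or Mx1Cre KO 1, 2 or 3, with edgeR adjusted p of at most 0.0699.

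Hoxa6 had at most 17 counts in a progenitor library and did not pass in progenitors (edgeR, Benjamini-Hochberg adjusted p = 0.225 for the mean of both Cre lines). Its Mx1Cre value of -2.44 ± 0.90 passed when control 1, which had no Hoxa6 count, was left out, at -2.87 (edgeR, Benjamini-Hochberg adjusted p = 0.0125), and the mean of both lines then stood at -1.55 (edgeR, Benjamini-Hochberg adjusted p = 0.0319). Hoxa2 was too low in progenitors for the filter on low counts and was not tested there. It averaged 0.169 ± 0.191 CPM in progenitor CreER KO libraries and 0.307 ± 0.219 CPM in their controls, and 0.119 ± 0.186 CPM in Mx1Cre KO libraries and 0.417 ± 0.288 CPM in theirs (SD, n = 4 each). Hoxa2 had no count in 5 progenitor libraries and Hoxa6 in 2, where a count of 0 allows up to 0.225 to 0.448 CPM depending on the library (3 counts). Hoxa4 in progenitors had log2 fold changes of -0.14 with CreER and -0.05 with Mx1Cre, with 95% intervals from -0.82 to 0.54 and from -0.75 to 0.65.

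Counted over the cluster, 1 of the 8 members was called lower in progenitors with CreER, where 0.131% of the 13692 genes tested were. With Mx1Cre the count was 4 of 8 beside 4.49% of all genes, and for the mean of both Cre lines 5 of 8 beside 5.51%. Hoxa2 is the untested member in each of these counts. In progenitor Mx1Cre control 1 and KO 4, genes with long exons read low, with slopes of -0.361 and -0.296 on log2 exon length, the lowest of all libraries. With Mx1Cre, Hoxa3, Hoxa5, Hoxa7 and Hoxa9 kept their calls when either library was left out and with the exon length trend removed. The 7 tested members had a median log2 fold change of -0.94 with CreER and -2.40 with Mx1Cre, against 0.00 and -0.01 over all genes tested. Library ranges did not overlap for 3 members with CreER and 4 with Mx1Cre, lower in KO each time, where this held for 4.78% and 6.05% of the genes tested. Of those with CreER, Hoxa10 was apart in CPM and not in raw counts.

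**Figure D3:**
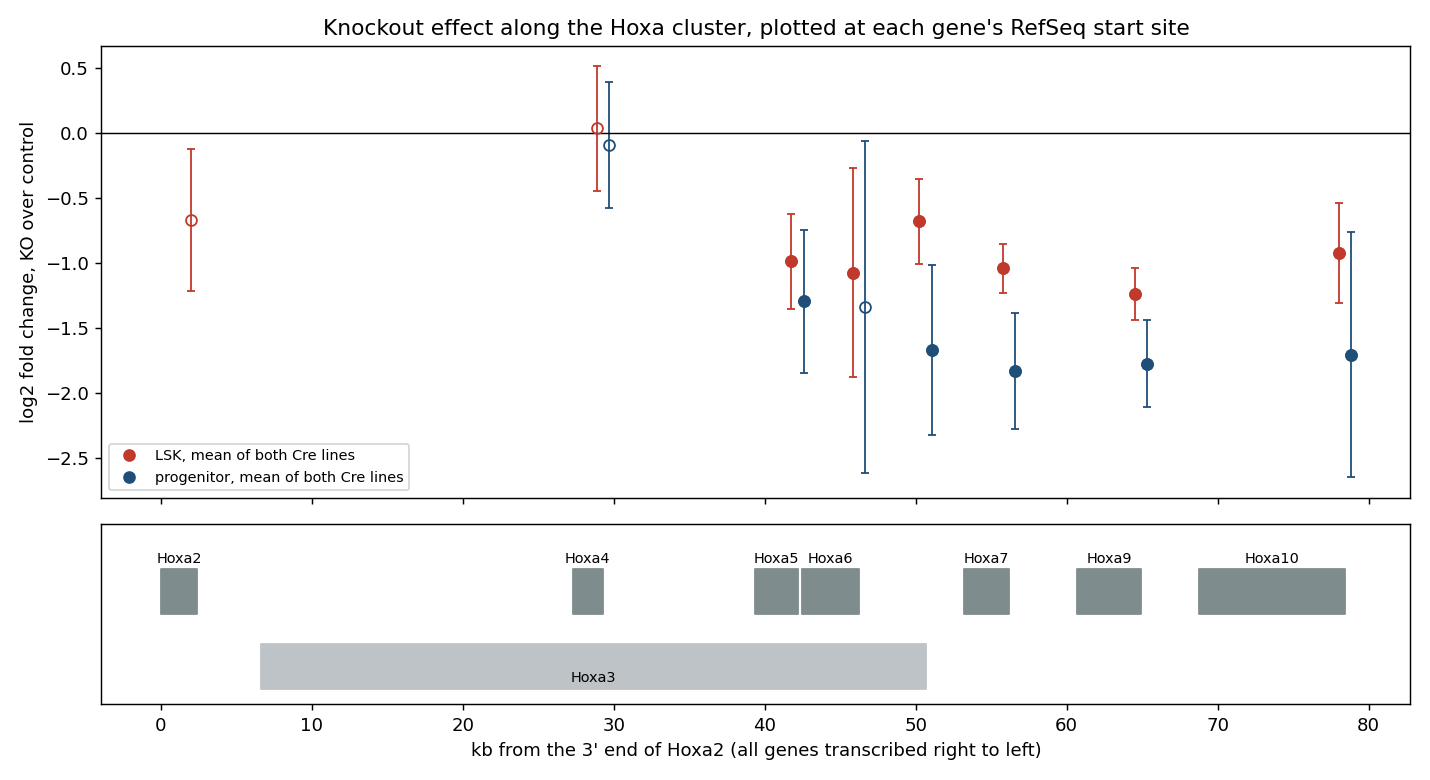
Upper panel, log2 fold change of KO over control, averaged over both Cre lines, with 95% intervals, plotted at each gene's start site (x axis, kb from the 3' end of Hoxa2), filled symbols for an edgeR adjusted p under 0.05, and gene bodies to scale in the lower panel, with Hoxa3 on a row of its own. From Hoxa5 to Hoxa10 the LSK means ran from -1.24 to -0.92 among the members drawn in the upper gene row, and Hoxa4 stood at 0.03.

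Along the cluster, the mean effect of both Cre lines in LSK cells was -0.67 for Hoxa2, -0.68 for Hoxa3, 0.03 for Hoxa4, -0.99 for Hoxa5, -1.08 for Hoxa6, -1.04 for Hoxa7, -1.24 for Hoxa9 and -0.92 for Hoxa10. Hoxa3, Hoxa5, Hoxa6, Hoxa7, Hoxa9 and Hoxa10 passed (edgeR, Benjamini-Hochberg adjusted p = 7.4e-08 for Hoxa9 to 0.0436 for Hoxa6). The mean call for Hoxa6 was lost on leaving out any 1 of 11 libraries, CreER controls 1, 2 and 4, Mx1Cre controls 1, 2 and 4, CreER KO 1, 2 and 4 and Mx1Cre KO 3 and 4, with edgeR adjusted p from 0.0551 to 0.0973, and in 1 fit of all 32 libraries (edgeR, Benjamini-Hochberg adjusted p = 0.0933). Hoxa2 missed the threshold (edgeR, Benjamini-Hochberg adjusted p = 0.0643) and passed without CreER KO 3 (edgeR, Benjamini-Hochberg adjusted p = 0.0476) or without CreER control 3 (edgeR, Benjamini-Hochberg adjusted p = 0.0325). Without CreER KO 2 and 3 together, Hoxa2 was at -0.91 and Hoxa6 at -1.48 (edgeR, Benjamini-Hochberg adjusted p = 0.0462 and 0.0247), and the means of the other members stayed on their side of the threshold. Within the intron of Hoxa3, Hoxa4 was thus the member with no measured fall, while Hoxa5, which also lies there, was lower.

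The comparison of the 2 Cre lines asked whether the loss differed between them. Hoxa9 in LSK cells was the 1 member whose KO effect differed past the threshold, with a further -0.74 ± 0.19 on the log2 scale with Mx1Cre over CreER (edgeR, Benjamini-Hochberg adjusted p = 0.0311), where 4.37% of the genes tested were called in either direction. This Hoxa9 difference was lost on leaving out any 1 of 8 LSK libraries, CreER control 3, Mx1Cre controls 1, 2 and 4, CreER KO 1 and 3 and Mx1Cre KO 1 and 3, with edgeR adjusted p from 0.0508 to 0.082, with limma-voom and in 1 edgeR fit of all 32 libraries (Benjamini-Hochberg adjusted p = 0.0548 and 0.118). Without LSK CreER KO libraries 2 and 3 together it was -0.85 (edgeR, Benjamini-Hochberg adjusted p = 0.0193). For Hoxa3 the difference was -1.10 ± 0.31 (edgeR, Benjamini-Hochberg adjusted p = 0.0534), and it passed with DESeq2 (Benjamini-Hochberg adjusted p = 0.0246) and in edgeR fits without CreER KO 2, Mx1Cre KO 2 or Mx1Cre control 3 (edgeR, Benjamini-Hochberg adjusted p = 0.031, 0.0239 and 0.0233). Without CreER KO 2 and 3 together the Hoxa3 difference was -1.01 (edgeR, Benjamini-Hochberg adjusted p = 0.118). For Hoxa7 it was -0.30, with a 95% interval from -0.67 to 0.07. In progenitors no member passed, where 0.299% of the genes tested were called. The progenitor differences had unadjusted edgeR p under 0.05 for Hoxa3, Hoxa5, Hoxa7 and Hoxa9, at -1.45, -1.28, -1.56 and -1.24. Hoxa7 passed without progenitor CreER KO library 2, at -1.80 (edgeR, Benjamini-Hochberg adjusted p = 0.0435), and DESeq2 called 2 members, Hoxa7 and Hoxa9 (Benjamini-Hochberg adjusted p = 0.0274 and 0.0165).

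Control levels of the Cre lines also differed for some members. Hoxa10 averaged 5.04 ± 0.984 CPM in LSK Mx1Cre controls and 10.3 ± 1.45 CPM in LSK CreER controls (SD, n = 4 each), without overlap, a log2 difference of -1.0 ± 0.25 (edgeR, Benjamini-Hochberg adjusted p = 0.00817). Hoxa3 averaged 8.17 ± 1.84 CPM in LSK Mx1Cre controls and 5.2 ± 0.294 CPM in LSK CreER controls, a log2 difference of 0.67 ± 0.22 (edgeR, Benjamini-Hochberg adjusted p = 0.0342). These are 2 of 8 members, where 21.7% of the genes tested in LSK controls were called in either direction, and here Cre line, agent and mice cannot be told apart. The same LSK controls also differed in Ly6a, at 18.5 CPM with Mx1Cre and 91.9 CPM with CreER on average. Their granulocyte and monocyte markers summed to 22100 CPM with Mx1Cre and 8100 CPM with CreER on average. The part of such differences between the LSK populations was not tested. The Hoxa3 call was lost without any 1 of CreER controls 1, 2 and 4 and Mx1Cre controls 1, 2 and 4, with edgeR adjusted p from 0.0674 to 0.115. In 1 fit of all 32 libraries neither Hoxa10 nor Hoxa3 was called between LSK controls (edgeR, Benjamini-Hochberg adjusted p = 0.0607 and 0.126). Between progenitor controls no member was called in the fit of the 16 progenitor libraries by edgeR or DESeq2, beside 25.3% of the genes tested, and 1, Hoxa7, had an unadjusted edgeR p under 0.05. The edgeR fit of all 32 libraries called Hoxa7 there, at 0.67 (Benjamini-Hochberg adjusted p = 0.0132).

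Comparing populations, 7 of the 8 members were higher in LSK cells than in progenitors, in KO and in control mice. Hoxa2, 1 of the 7, passed the filter on low counts in LSK cells and not in progenitors. It entered this fit only through the population where it was high, so its calls here carry no weight of their own. In KO mice the log2 differences of LSK over progenitors were 3.23 ± 0.34 for Hoxa10, 2.53 ± 0.24 for Hoxa3, 2.11 ± 0.53 for Hoxa2, 1.95 ± 0.23 for Hoxa5, 1.93 ± 0.55 for Hoxa6, 1.74 ± 0.16 for Hoxa7 and 1.73 ± 0.13 for Hoxa9, all past the threshold (edgeR, Benjamini-Hochberg adjusted p = 0.00781 or lower). In control mice they were 2.43 ± 0.29 for Hoxa10, 1.56 ± 0.21 for Hoxa3, 1.72 ± 0.47 for Hoxa2, 1.65 ± 0.21 for Hoxa5, 1.68 ± 0.48 for Hoxa6, 0.96 ± 0.15 for Hoxa7 and 1.19 ± 0.12 for Hoxa9, again all past it (edgeR, Benjamini-Hochberg adjusted p = 0.00697 or lower). Of all genes tested, 16.8% were called higher in LSK cells in KO mice and 17.4% in control mice. Hoxa6 in KO mice missed the threshold without LSK CreER KO libraries 2 and 3, at 1.55 (edgeR, Benjamini-Hochberg adjusted p = 0.0617), and with limma-voom, at 1.76 (Benjamini-Hochberg adjusted p = 0.0628). Hoxa4 did not pass in either genotype, at -0.07 in KO and -0.19 in control mice (edgeR, Benjamini-Hochberg adjusted p = 0.86 and 0.535).

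**Figure D4:**
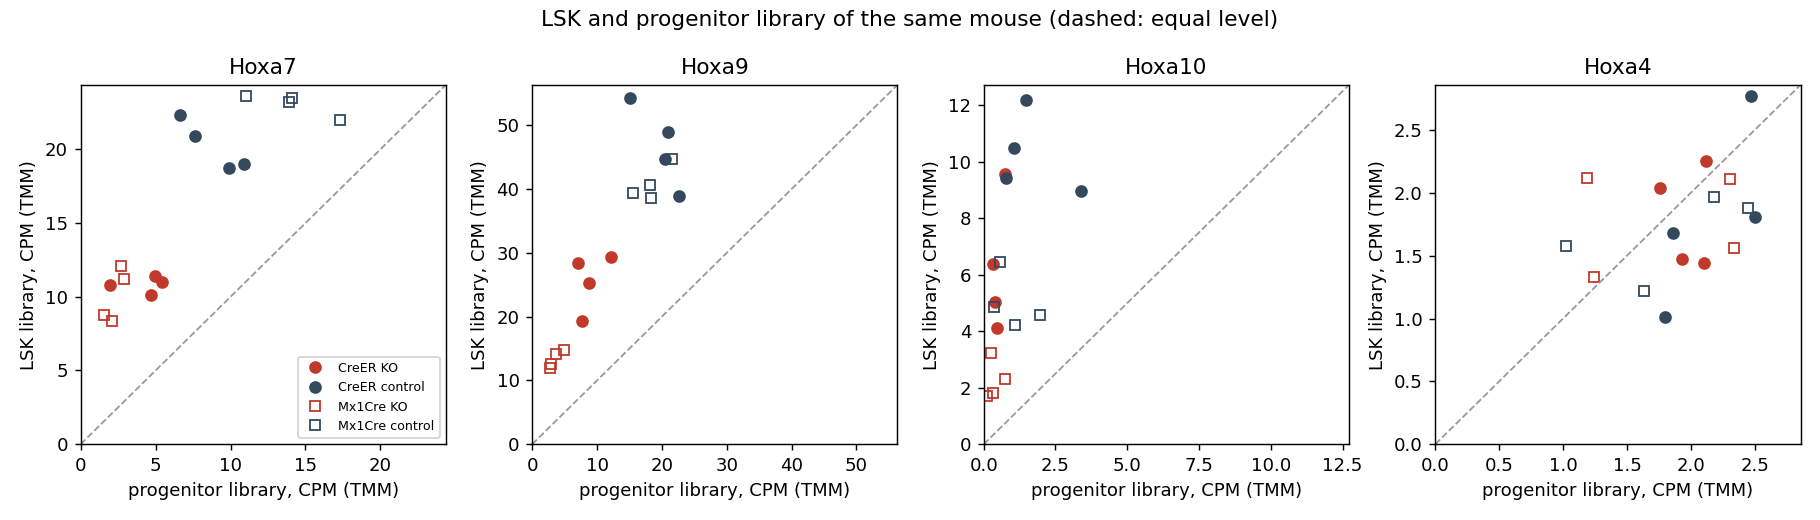
CPM in the LSK library (y axis) against CPM in the progenitor library (x axis) of the same mouse, as labelled, for 4 Hoxa genes, with 16 mice per panel and the dashed line at equal levels. The mouse labels of 2 LSK CreER KO libraries are in doubt, as their sex-linked genes went against the sex given. Kat7 was at the KO level in both. Hoxa7, Hoxa9 and Hoxa10 lay above the line in 16 of 16 mice, and Hoxa4 in 6 of 16.

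Mouse by mouse, as labelled, Hoxa3, Hoxa5, Hoxa7, Hoxa9 and Hoxa10 were higher in the LSK library in 16 of 16 mice, Hoxa2 and Hoxa6 in 15 of 16, and Hoxa4 in 6 of 16. The sex-linked genes of LSK CreER KO libraries 2 and 3 went against the label, so 2 of these pairs may join different mice. The KO effect itself was smaller in LSK cells than in progenitors for Hoxa7, by 0.78 ± 0.21 on the log2 scale (edgeR, Benjamini-Hochberg adjusted p = 0.0447), the 1 member called, where 2.52% of the genes tested were. This Hoxa7 difference was near the threshold and was lost without both LSK CreER KO libraries 2 and 3, at 0.75 (edgeR, Benjamini-Hochberg adjusted p = 0.119), and with no filter on low counts, at 0.77 (edgeR, Benjamini-Hochberg adjusted p = 0.0659). It was also lost on leaving out any 1 of 22 of the 32 libraries, with edgeR adjusted p up to 0.0892. The 10 libraries whose absence kept it were LSK CreER KO 1, LSK Mx1Cre KO 1, progenitor CreER KO 2, 3 and 4, progenitor CreER controls 2 and 4, progenitor Mx1Cre KO 2 and 4 and progenitor Mx1Cre control 1. Hoxa9 had a difference of 0.54 ± 0.17 (edgeR, Benjamini-Hochberg adjusted p = 0.0997), which passed without progenitor CreER KO 1 (edgeR, Benjamini-Hochberg adjusted p = 0.038) or progenitor Mx1Cre KO 4 (edgeR, Benjamini-Hochberg adjusted p = 0.0408). For Hoxa3 it was 0.97 ± 0.32 (edgeR, Benjamini-Hochberg adjusted p = 0.104).

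The order of group levels shows both changes at once. From low to high, the Hoxa9 means were 3.55 CPM in progenitor Mx1Cre KO, 8.94 in progenitor CreER KO, 13.4 in LSK Mx1Cre KO, 18.4 in progenitor Mx1Cre control, 19.8 in progenitor CreER control, 25.6 in LSK CreER KO, 40.8 in LSK Mx1Cre control and 46.7 in LSK CreER control libraries. Neighbours overlapped between the 2 LSK controls, between LSK CreER KO and progenitor CreER control, between the 2 progenitor controls, and between LSK Mx1Cre KO and progenitor CreER KO, and the other 3 steps were clear of overlap. LSK Mx1Cre KO cells thus held less Hoxa9 than control progenitors of either Cre line. For Hoxa7 the LSK KO means of 10.8 CPM with CreER and 10.1 CPM with Mx1Cre stood between the progenitor Mx1Cre controls at 14.1 CPM and the progenitor CreER controls at 8.76 CPM, with overlap at each of these steps.

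Summed per kilobase, the 8 genes reached 28.2 ± 4.86 CPM per kb in LSK CreER KO and 47.9 ± 5.26 in LSK CreER control libraries (SD, n = 4 each). The sum was 18.9 ± 2.63 in LSK Mx1Cre KO and 46.8 ± 2.37 in LSK Mx1Cre control libraries. In progenitors it was 9.82 ± 2.25 in CreER KO and 18.6 ± 2.84 in CreER control libraries, and 5.16 ± 0.58 in Mx1Cre KO and 22.1 ± 1.78 in Mx1Cre control libraries. Hoxa4, at a like level throughout, made up 22.8% ± 8.96 of the cluster's sum in progenitor Mx1Cre KO and 5.41% ± 1.92 in progenitor Mx1Cre control libraries (SD, n = 4 each). Hoxa9 made up 31.3% ± 1.91 of the sum in LSK Mx1Cre KO and 38.4% ± 2.08 in LSK Mx1Cre control libraries, means further apart than their SDs. In the other 3 pairs the SDs overlapped, at 39.9% ± 4.29 in LSK CreER KO and 42.8% ± 3.43 in LSK CreER control libraries, 40.8% ± 8.74 in progenitor CreER KO and 46.9% ± 3.0 in progenitor CreER control libraries, and 30.1% ± 6.28 in progenitor Mx1Cre KO and 36.9% ± 5.93 in progenitor Mx1Cre control libraries.

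Across the 32 libraries the log2 CPM of the members other than Hoxa4 ran together, with Pearson r from 0.645 to 0.941 over their 21 pairs, and the 7 pairs with Hoxa4 had r from -0.327 to -0.0157. The libraries share groups, and with group means removed the 21 pairs had r from -0.325 to 0.561. The genes whose profile over the 32 libraries was most like the mean of the 8 members, of 12675 ranked, were Ltbp3 (r = 0.967), Slc30a4 (0.95), Fbxo32 (0.944), Sigirr (0.942), Tie1 (0.941) and Cyp2j9 (0.938). These r values describe 8 groups that differ in population and genotype.

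Among other transcripts of the cluster, Hoxa11 and Hoxa13 had at most 1 and 2 counts in any library and were not tested. Hoxaas3, an antisense transcript that overlaps Hoxa7 and Hoxa3, averaged 1.26 and 2.55 CPM in LSK CreER KO and control libraries and 0.802 and 2.84 CPM in LSK Mx1Cre KO and control libraries. Its mean effect in LSK cells was -1.38 ± 0.34 (edgeR, Benjamini-Hochberg adjusted p = 0.00558), in the same direction as Hoxa7, and -1.58 without LSK CreER KO libraries 2 and 3 (edgeR, Benjamini-Hochberg adjusted p = 0.0124). Of 12 genes beside the cluster, 8 could be tested in LSK cells. For the mean effect of both Cre lines edgeR called 0 lower (0 with an unadjusted p under 0.05) and 1 higher (3 with an unadjusted p under 0.05), Hibadh, at 0.18 ± 0.06 (edgeR, Benjamini-Hochberg adjusted p = 0.0327). Over all genes tested in LSK cells, 14.3% were called lower and 13.5% higher. Without LSK CreER KO libraries 2 and 3, 10 neighbours could be tested and Hibadh and Skap2 were higher, at 0.20 each (edgeR, Benjamini-Hochberg adjusted p = 0.0348 and 0.0426), beside 9.93% of all genes. In LSK cells with Mx1Cre alone 1 neighbour was lower and 2 were higher, where 15.9% of all genes were lower. With CreER alone edgeR called 0 neighbours, with 0 at an unadjusted p under 0.05. In progenitors 2 of 7 tested neighbours were lower, Chn2 at -0.64 ± 0.14 and Snx10 at -0.31 ± 0.09 (edgeR, Benjamini-Hochberg adjusted p = 0.00862 and 0.0493), beside 5.51% of all genes for the mean of both Cre lines. Of the 28 Hox genes of other clusters, Hoxb2, Hoxb3 and Hoxb4 could be tested, and edgeR called 0 in either population, with an unadjusted p under 0.05 for 0 in LSK cells and 0 in progenitors.

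Partners and regulators of the cluster were counted from lists of known genes, for the mean effect of both Cre lines. Over all genes tested, 14.3% were called lower and 13.5% higher in LSK cells, and 5.51% lower and 2.28% higher in progenitors. Of 6 tested TALE genes, whose products bind DNA with HOX proteins, 3 were lower in LSK cells. Among them, Meis1 fell by 0.61 ± 0.11 and Pbx4 by 0.57 ± 0.11 on the log2 scale, while Pbx3 was higher, at 0.43 ± 0.11 (edgeR, Benjamini-Hochberg adjusted p = 0.00843 or lower). In progenitors Pbx3 alone passed, at 0.66 ± 0.15 (edgeR, Benjamini-Hochberg adjusted p = 0.0122). Of 17 tested chromatin activators of Hox genes, 2 were lower and 2 higher in LSK cells. Mllt6, a PHD finger protein gene that is a fusion partner of MLL, was lower at -0.64 ± 0.12, and Dpy30, a subunit of MLL complexes, was higher at 0.39 ± 0.07 (edgeR, Benjamini-Hochberg adjusted p = 0.00096 and 0.000456). In progenitors edgeR called 0 of the 17 activators, with an unadjusted p under 0.05 for 1 lower and 1 higher, and Mllt6 stood at -0.78 ± 0.23 (edgeR, Benjamini-Hochberg adjusted p = 0.0529). Of 28 Polycomb genes, 6 were lower and 4 higher in LSK cells, with Ezh1 at -0.37 ± 0.08 and Cbx6 at -0.44 ± 0.10 (edgeR, Benjamini-Hochberg adjusted p = 0.00383 and 0.00453). In progenitors 1 of the 28, Cbx6, was lower, at -0.36 ± 0.09 (edgeR, Benjamini-Hochberg adjusted p = 0.0267). Of 19 known HOXA9 and MEIS1 target genes, a list that holds Meis1 itself, 11 were lower and 3 higher in LSK cells, with a median of -0.40 against 0.01 over all genes. Lmo2 fell by 0.42 ± 0.06, Erg by 0.53 ± 0.09 and Igf1r by 0.47 ± 0.09 (edgeR, Benjamini-Hochberg adjusted p = 0.00074 or lower). In progenitors 1 of the 19, Bcl2, was lower, at -0.79 ± 0.16 (edgeR, Benjamini-Hochberg adjusted p = 0.00549).

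Markers of cell types moved in the same libraries, counted for the mean effect of both Cre lines. Over all genes tested in LSK cells, 14.3% were called lower and 13.5% higher. In progenitors these shares were 5.51% and 2.28%. The 16 LSK gate and stem cell genes summed to 1390 to 2100 CPM in LSK CreER KO and 1810 to 2070 CPM in LSK CreER control libraries, and to 1080 to 1470 CPM in LSK Mx1Cre KO and 1500 to 1830 CPM in LSK Mx1Cre control libraries. In LSK cells 8 of the 16 were lower, among them Tek, a receptor of stem cells, and Mecom, a transcription factor gene of stem cells, at -2.39 ± 0.26 and -1.35 ± 0.18 (edgeR, Benjamini-Hochberg adjusted p = 4.03e-06 and 2.48e-05), while Ly6a stood at -0.08 (edgeR, Benjamini-Hochberg adjusted p = 0.78). The 19 granulocyte and monocyte markers summed to 7360 to 17100 CPM in LSK CreER KO and 5430 to 12200 CPM in LSK CreER control libraries, and to 21600 to 30300 CPM in LSK Mx1Cre KO and 20700 to 23400 CPM in LSK Mx1Cre control libraries, with 8 of 19 higher in KO. The 16 lymphoid markers summed to 113 to 172 CPM in LSK CreER KO and 137 to 212 CPM in LSK CreER control libraries, and to 52.1 to 110 CPM in LSK Mx1Cre KO and 153 to 191 CPM in LSK Mx1Cre control libraries, with 6 of 12 tested lower. Of other lists in LSK cells, 5 of 12 tested erythroid markers were lower and 3 higher, 6 of 9 megakaryocyte markers were lower and 1 higher, and 4 of 6 mast cell and basophil and 3 of 5 endothelial and stromal markers were lower. In progenitors 2 of the 15 tested stem cell genes, 6 of the 19 granulocyte and monocyte markers and 1 of 7 lymphoid markers were lower, and 2 of 14 erythroid markers were higher. The progenitor stem cell genes summed to 601 to 831 CPM in CreER KO and 727 to 883 CPM in CreER control libraries, and to 564 to 781 CPM in Mx1Cre KO and 698 to 856 CPM in Mx1Cre control libraries. Each of the 16 stem cell genes, 19 granulocyte and monocyte markers and 16 lymphoid markers was detected in every group. Without LSK CreER KO libraries 2 and 3, the LSK counts that moved were 4 Polycomb genes lower and 2 higher, 2 target genes higher, 1 stem cell gene higher, 1 granulocyte and monocyte marker lower and 6 higher, 2 erythroid markers higher, 3 mast cell and basophil markers lower and 5 of 13 tested lymphoid markers lower, and each gene named from these lists kept its call or its lack of one. In that fit 11.9% of all genes were lower and 9.93% higher. The shares lower were 14.3% for Polycomb genes, 5.26% for granulocyte and monocyte, 50% for mast cell and basophil and 38.5% for lymphoid markers. The shares higher were 7.14% for Polycomb, 10.5% for target and 6.25% for stem cell genes, and 31.6% for granulocyte and monocyte and 14.3% for erythroid markers. The remaining 2 LSK CreER KO libraries had granulocyte and monocyte sums of 7360 and 14700 CPM. The part of these shifts in the fall of the Hoxa genes was not tested.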

How the data were processed

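Whole-number read counts per gene were deposited for 32 libraries. Libraries were made with a TruSeq kit from 50 ng of RNA and read as paired ends of 80 bp, per the labels' protocols. The submitters' processing notes name featureCounts and mm10. For the counting step, no version, aligner, annotation or strand use was stated in the sources used here. The deposited counts of each library's own table equalled its column in the joint table in 32 of 32 cases, and 25275 genes were given symbols from a RefSeq table of GRCm38.p6. Replicates of a group are different mice.

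Counts were tested with edgeR 4.0.16 in R 4.3.3: TMM, filterByExpr (10 counts in enough libraries, 15 in total), the quasi-likelihood test, Benjamini-Hochberg adjustment over all genes tested and a threshold of 0.05. LSK and progenitor libraries were fitted apart (16 each), with 1 fit of all 32 for comparisons across them, giving 13 comparisons. These share libraries: both Cre lines enter their mean, and population differences reuse the same KO and control libraries. CPM levels use TMM factors over all 32 libraries (0.89 to 1.07), CPM per kb divides by the deposited exon length, and likeness is Pearson r on log2(CPM + 0.5). Named genes were the 8 members, up to 4 genes of each list by lowest adjusted p, the 6 most alike, other Hox and TALE genes, and Kat7 and Ly6a as checks of the labels. The members and lists were chosen with earlier results of these data known. Some genes that this rule names are not reported here.

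LSK and progenitor libraries with the same animal number in the labels come from 1 mouse. Their deviations from group means correlated at a median r of 0.248 (-0.0939 to 0.427), above 0.1 for 14 of 16 mice. Alternatives used DESeq2 1.42.0, limma 3.58.1 (voom), other filters and scalings, sex, exon length, blocks and other sets of libraries. Promoter sequences came from RefSeq, and exon overlaps from GENCODE on GRCm38.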

Additional observations from a re-analysis of the deposited data

Results flagged for a closer look

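Hoxa9 showed a KO effect in LSK cells that differed between Cre lines, with a further -0.74 on the log2 scale with Mx1Cre over CreER by the interaction test in edgeR (Benjamini-Hochberg adjusted p = 0.0311), and it was lower in KO libraries of both lines without overlap. This Hoxa9 call was lost on leaving out any 1 of 8 LSK libraries and in 1 fit of all 32 libraries (edgeR, Benjamini-Hochberg adjusted p = 0.118). Hoxa7 showed a KO effect that differed between populations, by 0.78 on the log2 scale in LSK cells over progenitors (edgeR, Benjamini-Hochberg adjusted p = 0.0447), being lower in KO in both. The Hoxa7 call was lost on leaving out most single libraries, and without LSK CreER KO libraries 2 and 3 (edgeR, Benjamini-Hochberg adjusted p = 0.119). By Dixon's test at its 95% critical value, 0 of the 64 sets of 4 libraries held a library that stood apart.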

How the results depend on the processing

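Of the 42 member results that passed the threshold, none changed direction under any alternative run, and they kept their side of the threshold in 395 of 410 fits other than those leaving out 1 library, where 67 of 568 lost it. The cause of the lost calls was not tested. Values that had not passed changed sign in 39 fits, 28 of them of Hoxa4. The number of members whose effect differed between Cre lines in LSK cells was 1, against 2 with DESeq2, 0 with limma-voom and 0 with all 32 libraries in 1 fit. For LSK controls it was 2, against 1 with the replicate number as a block and 0 with all 32 libraries. In progenitors with CreER it was 1, against 2 with DESeq2, 2 with all 32 libraries and 0 with the replicate block. Between Cre lines in progenitors it was 0, against 2 with DESeq2 and 2 with all 32 libraries, and between progenitor controls 0, against 1 with all 32. The population difference of the KO effect was called for 1 member, against 0 without a filter on low counts and 0 without LSK CreER KO libraries 2 and 3. Counts over all genes that moved by over 1.5 times were 445 for LSK CreER (885 with DESeq2, 107 with all 32 libraries, 231 with the 8 compared libraries alone), 616 for the LSK Cre difference (1229 with DESeq2, 236 with all 32, 310 without the 2 libraries) and 23 for progenitor CreER (183 with DESeq2, 36 with voom, 67 with the exon length trend removed, 212 with all 32, 158 with 8 libraries). They were 833 for progenitor Mx1Cre (1264, 1521 and 344 with DESeq2, all 32 and 8 libraries), 1067 for the progenitor mean (1909 with all 32), 41 for the progenitor Cre difference (120, 19 and 134 with DESeq2, voom and all 32), 3458 for progenitor controls (2297 with 8 libraries) and 364 for the population difference (611 with DESeq2, 769 with the mouse block, 148 without the 2 libraries).

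Leaving out 1 library, the number of members called ranged from 2 to 3 for LSK CreER, 5 to 6 for LSK Mx1Cre, 5 to 7 for the LSK mean, 0 to 2 for the LSK Cre difference and 1 to 2 for LSK controls. It ranged from 0 to 1 for progenitor CreER, 4 to 5 for progenitor Mx1Cre, 4 to 6 for the progenitor mean, 0 to 1 for the progenitor Cre difference and 0 to 0 for progenitor controls. Across populations it was 7 to 7 in KO and 7 to 7 in controls, Hoxa2 included, and 0 to 2 for the difference. The shares of all genes called in these fits are not given here, so the ranges show only how steady the member calls were.

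The mouse, as labelled, taken as a replicate block changed no call of a member. KO and control libraries share only a replicate number, with a median r of 0.0942 (-0.279 to 0.434), and 13 of 32 libraries correlated best with their own number. With the replicate number as a block, edgeR adjusted p was 0.0592 for Hoxa2 in LSK Mx1Cre, 0.0589 for Hoxa6 in the LSK mean, 0.0546 for Hoxa3 between LSK controls and 0.0591 for Hoxa9 in progenitor CreER. Without TMM, 63 of 64 mean levels moved by less than 1 SD. Counts limit Hoxa2 and Hoxa6, which had as few as 0 per library, and Hoxa4, with 8 to 29.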
